A study of Mus musculus with 7 samples.

Results

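The ribosomal protein genes are those whose symbol names a protein of the cytosolic ribosome (Rpl or Rps with a number, Rplp0 to Rplp2, or Rpsa) and whose mean over all 7 libraries was at least 50 reads. Of 18468 genes in the table, 81 had such a symbol and 80 reached the mean, 48 for the large subunit and 32 for the small subunit. It was the mean level over both treatments that chose the members, not the difference between treatments. The members with means nearest above 50 reads were Rpl36 (238 reads) and Rpl29 (303.1 reads), and the only gene below it was Rpl3l, a paralog known from striated muscle, with 0.143 reads. The set therefore holds nearly every gene that the name pattern could have chosen, and 3 of its members are paralogs (Rpl22l1, Rpl7l1 and Rps27l) of core subunit proteins.

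A ribosome needs each of its core proteins once, apart from the paired small proteins of the stalk, and cells make these proteins in matched amounts. Ribosomal protein messages are known to begin with a run of pyrimidines, the 5' terminal oligopyrimidine tract, through which mTOR signaling and the protein Larp1 adjust their translation and stability together. Demand for ribosomes follows cell growth, and the genes for ribosome assembly, many of them targets of Myc, respond to growth signals at the level of transcription.

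C3H10T1/2 cells are a mouse mesenchymal line that can form osteoblasts or adipocytes. They were held without serum for 12 h and then exposed, still without serum, for 48 h to 2 μM purmorphamine, an agonist of Smoothened (n = 4 libraries, numbered 5 to 8), or to its vehicle, 0.02% DMSO (n = 3 libraries, numbered 2 to 4). Total RNA was depleted of ribosomal RNA and sequenced as stranded single reads of 100 bases, which the authors resampled to equal depth before counting them per gene. The comparison asks what activation of Smoothened changes among transcripts. The labels do not say that the libraries came from separate cultures, so p-values measure only the spread between these libraries, which may be technical. In RNA from whole cultures, fewer cells of a type and less RNA per cell cannot be told apart.

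Library totals ran from 14337225 to 14342154 reads. Gli1, a direct target of Hedgehog signaling, had 7 to 12 reads per library with DMSO against 2522 to 3171 with purmorphamine, and Ptch1, the Hedgehog receptor, had from 504 to 532 and from 10296 to 11451. All 8 mesenchymal markers examined had reads (summed, 271235 to 277559 with vehicle and 241859 to 261550 with purmorphamine). Of 3 endothelial markers the sum was 775 to 820 and 1897 to 2153 reads, nearly all from Tek, with Pecam1 at a mean of 3.43 and Cdh5 at 13.3. The 2 epithelial markers in the table summed to 14 to 22 and 111 to 136 reads, mostly Cdh1, and 3 leukocyte markers to 53 to 57 and 55 to 75, with Ptprc at 0.143. The part of these markers in the results below was not tested.

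The start sites of 60 members were found in RefSeq (GRCm38.p6). Within 15 bases on either side of the start, the longest run of pyrimidines reached at least 8 bases in 25 of the 60 (41.7%), against 12% of the 32851 promoters in the same table, and the median run was 6 bases against 4. The windows below belong to the members that were called higher and to those with the largest decreases (Rpl29 excepted), and the longest pyrimidine run is in capitals (5' to 3' on the strand of the gene, with the annotated start as base 16).
Rpl35 (chr2:39005117-39005146, minus strand): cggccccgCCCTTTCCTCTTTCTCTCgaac
Rps27 (chr3:90213634-90213663, minus strand): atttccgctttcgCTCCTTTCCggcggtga
Rps2 (chr17:24720048-24720077, plus strand): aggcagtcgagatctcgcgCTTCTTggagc
Rpl7l1 (chr17:46782642-46782671, minus strand): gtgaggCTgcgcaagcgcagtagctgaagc
Rpl27 (chr11:101442230-101442259, plus strand): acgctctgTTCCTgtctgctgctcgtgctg
Rps16 (chr7:28350674-28350703, plus strand): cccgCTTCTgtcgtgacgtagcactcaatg
Rps27l (chr9:66946071-66946100, plus strand): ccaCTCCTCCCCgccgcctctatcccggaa
The run was 18 bases for Rpl35 and 9 for Rps27, both called higher, but also 9 for Rps27l, called lower. It was 6 for Rps2, 5 each for Rpl27 and Rps16, and 2 for Rpl7l1. Among the members with a start site, 7 of 23 called lower had a run of at least 8 bases, as did 16 of 35 not called. Annotated starts can lie some bases from the start a cell uses, so a short run here describes the window only.

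In the 300 bases around each start, the letters CTTTCC stood on the strand of the gene in 23 of the 60 members (38.3%), against 14.1% of all promoters, and on the other strand in 11 (18.3% against 14.4%). The letters CCGGAAG stood on the strand of the gene in 16 members (26.7% against 4.77%) and on the other strand in 8 (13.3% against 4.79%). Both searches are descriptions of these windows.

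With purmorphamine, transcripts of the ribosomal protein genes changed little. The largest decrease, of Rps2, was 17.6%, and the largest increase, of Rpl35, was 11.3%. The median log2 fold change of purmorphamine over vehicle was -0.05, with quartiles of -0.12 and -0.013, whereas all 12388 genes tested had a median of 0.0038 with quartiles of -0.18 and 0.21. Thus 67 members lay below 0 and 13 above, within a range narrower than that of genes in general. For 65 of the 80, the 95% interval of the log2 fold change stayed within a 1.2-fold change in either direction, and over the 80 members the median distance from estimate to interval bound was 0.12.

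With edgeR (quasi-likelihood test, p-values adjusted by Benjamini-Hochberg over every gene tested) and the study's threshold of 0.2, 28 members were called lower (35%) and 2 higher (2.5%), where 31.1% of all genes were called lower and 31.4% higher. The share called lower was thus close to that of all genes. Any call was made for 30 members (37.5%) against 62.5% of all genes, and 17 (21.3%) passed an adjusted p of 0.05 against 46.9%. A call together with a change of at least 1.2-fold was made for 1 member, Rps2, against 37.1% of all genes. In the deposited counts, the groups did not overlap for 11 members (13.8%), 10 of them lower with purmorphamine and 1 higher, against 20.4% of all genes lower and 29.1% higher (49.5% in all). After TMM scaling they did not overlap for 14 members, all lower, against 49.2% of all genes. All 80 members passed the filter on low counts.

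The split of the calls depended on the scaling. TMM factors were 0.978 to 0.986 with vehicle and 1.01 to 1.02 with purmorphamine, and with library totals alone 16 members were called lower and 4 higher, with a median of -0.0036 (25.5% of all genes were then called lower and 37.5% higher, 63.1% in all). With each library's trend over GC content and coding length removed, 13 were called lower and 15 higher, with a median of -0.0031 (33.2% and 32.7% of all genes, 66% in all). That correction also removes any difference between treatments that follows GC content or coding length. Without DMSO replicate 4, 14 were called lower and 4 higher, with a median of -0.0091 (26.9% of all genes lower and 27.9% higher, 54.9% in all). Library totals alone also moved the median of all genes, from 0.0038 to 0.0513, so the members minus all genes gave -0.0549, close to the -0.0551 under TMM scaling. That difference was -0.0045 with the GC and length correction and -0.02 without DMSO replicate 4. With the other libraries left out in turn it ran from -0.03 (without purmorphamine replicate 7) to -0.09 (without purmorphamine replicate 5).

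**Figure D1:**
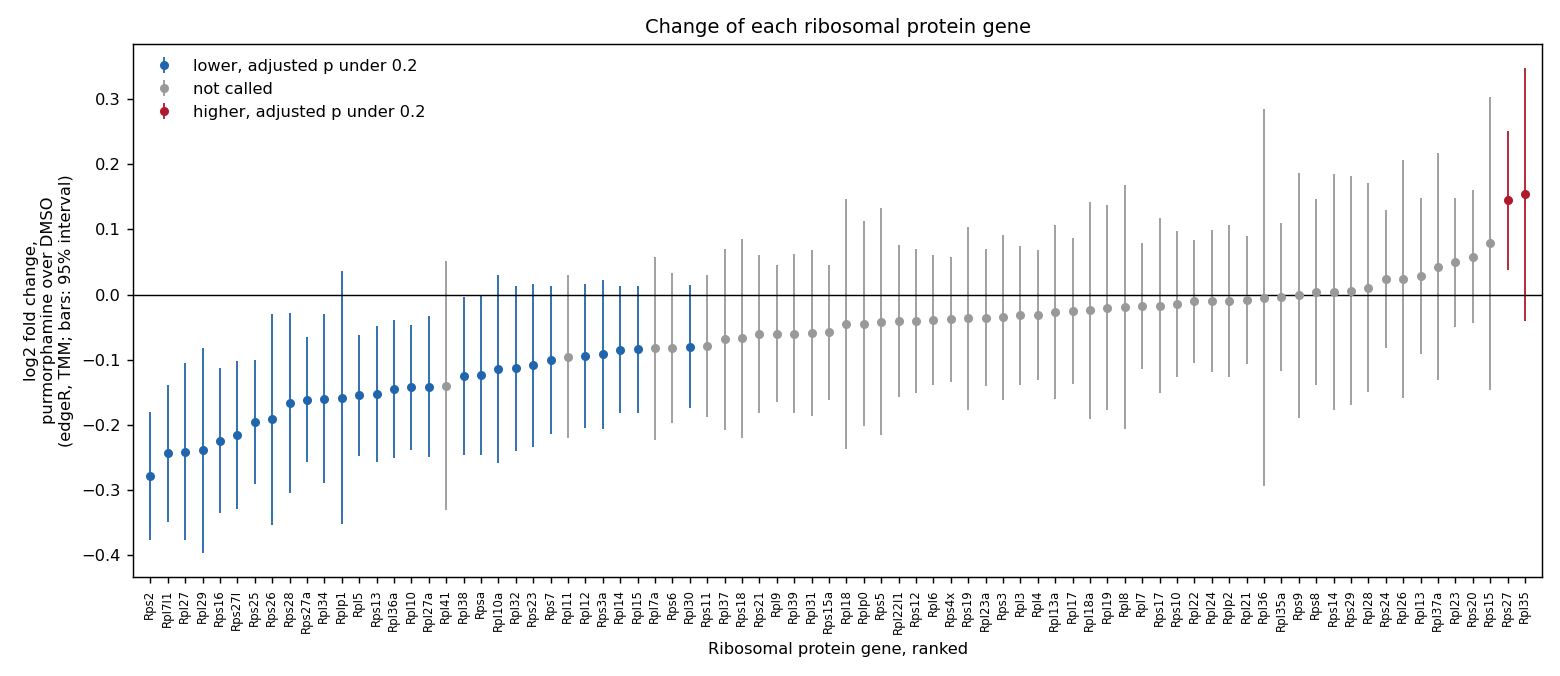
Log2 fold change of purmorphamine over vehicle for each of the 80 ribosomal protein genes, ranked, from edgeR with TMM factors. Points are estimates and bars 95% intervals, with 28 genes called lower in blue, 2 called higher in red and 50 not called in grey; the estimates run from -0.28 for Rps2 to 0.15 for Rpl35.

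The share of each library's reads that fell on the members changed as little. It was 2.99%, 2.98% and 3.22% in DMSO replicates 2, 3 and 4, and 3.22%, 3.16%, 2.88% and 2.96% in purmorphamine replicates 5, 6, 7 and 8. The groups overlapped, with a mean of 3.06% ± 0.137 (SD, n = 3) for DMSO against 3.06% ± 0.160 (SD, n = 4) for purmorphamine, a difference of -0.0079 percentage points. Over the TMM-scaled total the difference was -0.109 points, also less than the spread between libraries.

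A minority of members were called lower under every alternative fit that was run. Of the 16 alternative fits (other scalings, tests and filters, the GC and length correction, and each library left out), 11 members were called lower in every fit and 1 member, Rps27, higher in every fit. The 11 were Rps2, Rps13, Rps16, Rps25, Rps27a, Rps27l, Rpl5, Rpl7l1, Rpl10, Rpl27 and Rpl29. Their roles differ, from decoding to late assembly of the large subunit. The share of all genes called the same way in every fit was not counted, so the 11 cannot be set against it. In the main edgeR fit, the share of members called lower was close to that of all genes (35% against 31.1%).

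Rps2, which lines the channel where messenger RNA enters the small subunit (ENSMUSG00000044533, chr17:24718116-24721929 in GENCODE M21), had 4372, 4237 and 4387 reads in DMSO replicates 2 to 4 and 3715, 3843, 3441 and 3761 in purmorphamine replicates 5 to 8. The groups were separate, with all 4 purmorphamine libraries under the lowest DMSO library. Its log2 fold change was -0.28 (standard error 0.0464, edgeR adjusted p = 9.85e-05). Rps16, whose tail reaches toward the transfer RNA in the peptidyl site (ENSMUSG00000037563, chr7:28350652-28353155), had 2158, 2176 and 2283 reads with DMSO against 2099, 2016, 1850 and 1840 with purmorphamine. The groups did not overlap, though purmorphamine replicate 5 came close to DMSO replicate 2. The log2 fold change was -0.22 (standard error 0.0529, edgeR adjusted p = 0.00221).

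Rpl27, one of the genes mutated in Diamond-Blackfan anaemia, a red cell disorder caused by loss of single ribosomal proteins (ENSMUSG00000063316, chr11:101442298-101445529), had 1006, 1003 and 1109 reads with DMSO against 970, 974, 820 and 871 with purmorphamine. All vehicle libraries were above all purmorphamine libraries, by a small gap. Its log2 fold change was -0.24 (standard error 0.0643, edgeR adjusted p = 0.00544). Rpl29, a heparin-binding protein of the large subunit (ENSMUSG00000048758, chr9:106429454-106431568), had 323, 320 and 336 reads with DMSO against 305, 272, 278 and 288 with purmorphamine. These groups too were separate, at the fewest reads per coding kilobase of any member. The log2 fold change was -0.24 (standard error 0.0744, edgeR adjusted p = 0.0146).

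**Figure D2:**
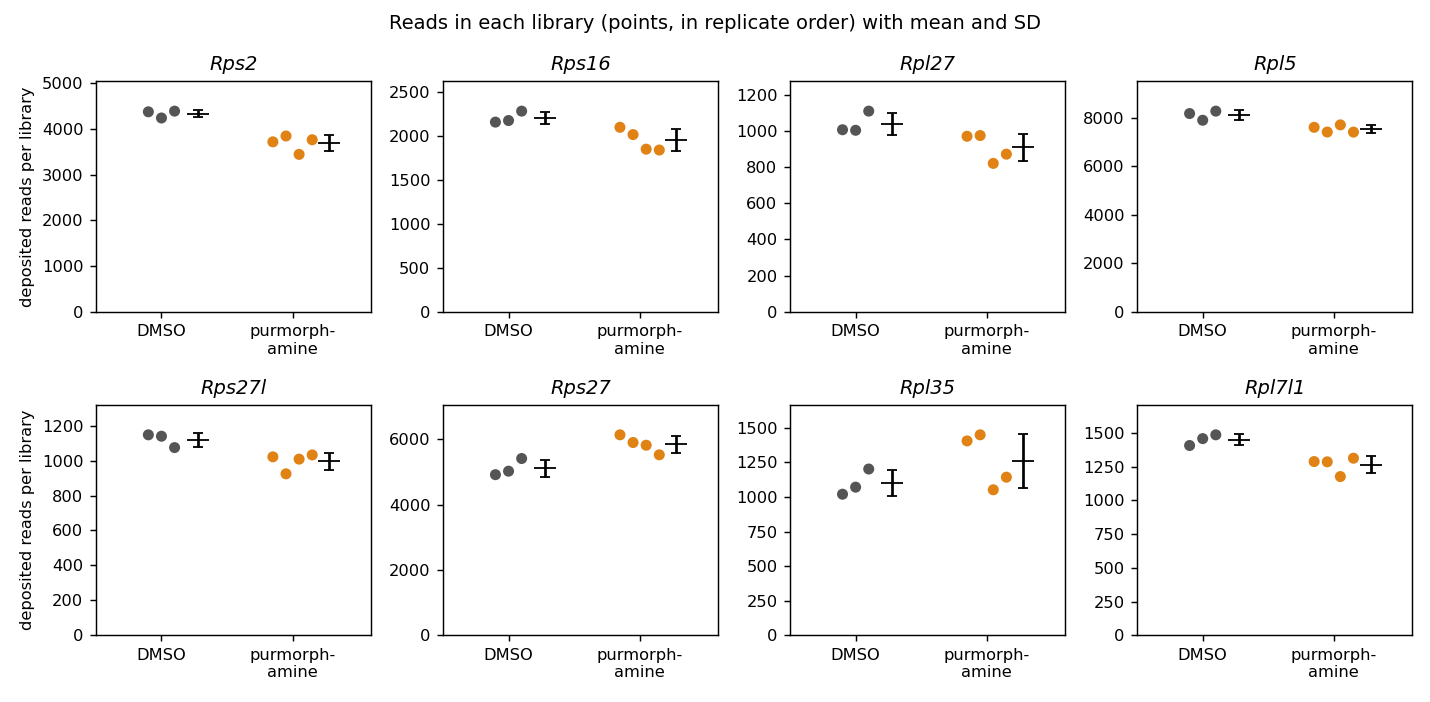
Deposited reads per library for 8 ribosomal protein genes, with vehicle libraries (grey, replicates 2 to 4 from left to right) and purmorphamine libraries (orange, replicates 5 to 8), and the mean with SD beside each group. The groups are separate and lower with purmorphamine for Rps2, Rps16, Rpl27, Rpl5, Rps27l and Rpl7l1, separate and higher for Rps27, and overlapping for Rpl35.

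Rps27, a zinc finger protein of the small subunit, and Rpl35, which lies at the exit of the peptide tunnel, were the members called higher. Rps27 (ENSMUSG00000090733, chr3:90212522-90213651) had 4913, 5020 and 5407 reads with DMSO against 6131, 5896, 5813 and 5520 with purmorphamine. The groups were separate in the deposited counts but overlapped after TMM scaling, with DMSO replicate 4 at 5529 and purmorphamine replicate 8 at 5430 scaled reads. Its log2 fold change was 0.14 (standard error 0.0505, edgeR adjusted p = 0.0266). Of its coding 100-base windows, 98.3% also occur in transcripts of 2 other annotated genes, so its count is uncertain. Large shares were also found for Rps2 (66.4%), Rps16 (77.4%), Rpl27 (77.2%), Rpl29 (63.2%) and Rpl35 (72.4%), whose counts are likewise uncertain. Among the other large decreases, the share was 3.77% for Rpl7l1 and 0% for Rps27l. Rpl35 (ENSMUSG00000062997, chr2:39001580-39005624) had 1020, 1071 and 1202 reads with DMSO against 1405, 1449, 1052 and 1143 with purmorphamine. Replicates 5 and 6 were above all vehicle libraries and replicates 7 and 8 were among them. The log2 fold change was 0.15 (standard error 0.0915, edgeR adjusted p = 0.182), and the call was lost without DMSO replicate 2 (adjusted p = 0.439), DMSO replicate 3 (0.359), purmorphamine replicate 5 (0.387) or purmorphamine replicate 6 (0.370), and with limma-voom (0.217).

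Large and small subunit genes had similar counts of calls. Of 48 large subunit genes, 16 were called lower and 1 higher, and their median log2 fold change was -0.04. Of 32 small subunit genes, 12 were called lower and 1 higher, with a median of -0.06. Of all genes, 31.1% were called lower and 31.4% higher. The difference between the subunits was not tested.

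The members were also grouped by position in the ribosome, with 31.1% of all genes called lower and 31.4% higher as the background for each group. Of 9 proteins of the exit tunnel, 1 was called higher (Rpl35) and 0 lower, and the median log2 fold change was -0.03. DESeq2 and limma-voom also called 0 lower, and 0 had an unadjusted p under 0.05 for a decrease in edgeR. With the GC and length correction 3 were called higher and the median was 0.03, and 1 was called lower without purmorphamine replicate 5 (Rpl31, adjusted p = 0.158) or 7 (Rpl39). Rpl39, which lines the tunnel near its end, had 6045, 5889 and 5778 reads with DMSO against 5934, 5268, 6376 and 5822 with purmorphamine, and the groups overlapped (log2 fold change -0.06, edgeR adjusted p = 0.417). Its direction depended on the fit, with a call as lower without purmorphamine replicate 7 (-0.10, adjusted p = 0.124) and as higher with the GC and length correction (0.12, adjusted p = 0.0289). Of 5 proteins at the channel where messenger RNA leaves the small subunit, 3 were called lower, with a median of -0.12. The count was 1 without DMSO replicate 4, 2 without purmorphamine replicate 7, and 2 with library totals alone or with the GC and length correction (median -0.0074). Rps26, which touches the message there, had 3034, 3030 and 3385 reads with DMSO against 3035, 3268, 2451 and 2651 with purmorphamine. These groups overlapped, since purmorphamine replicates 5 and 6 were at vehicle levels (log2 fold change -0.19, standard error 0.0764, edgeR adjusted p = 0.0496), and the call was lost without DMSO replicate 4 (adjusted p = 0.242). Rps14, from the same channel, had a log2 fold change of 0.0042 (edgeR adjusted p = 0.976).

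At the entry channel, where Rps2 was called lower, Rps3 was not called (8487 ± 514 reads with vehicle, 8561 ± 671 with purmorphamine, log2 fold change -0.03, edgeR adjusted p = 0.667). Rpl5 and Rpl11 join 5S ribosomal RNA in a particle that also binds Mdm2, the brake on p53. Rpl5 had 8187, 7910 and 8287 reads with DMSO against 7618, 7423, 7719 and 7420 with purmorphamine, and the groups did not overlap (log2 fold change -0.15, standard error 0.044, edgeR adjusted p = 0.00846). Its partner Rpl11 was close to the threshold but was not called (4140 ± 232 and 4005 ± 317 reads, log2 fold change -0.10, edgeR adjusted p = 0.201), though it was called lower with limma-voom (0.189), with RLE scaling (0.198) and without DMSO replicate 3 (0.189), purmorphamine replicate 5 (0.157) or purmorphamine replicate 6 (0.0723). Every coding window of Rpl5 is shared with other annotated genes, and 83.0% of those of Rpl11.

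Of the 3 proteins of the P stalk, which recruits elongation factors, Rplp1 was called lower. It had 1886, 1916 and 2220 reads with DMSO against 2087, 2098, 1488 and 1766 with purmorphamine. The groups overlapped broadly (log2 fold change -0.16, standard error 0.0919, edgeR adjusted p = 0.172), and the call was lost without DMSO replicate 4 or purmorphamine replicate 7 or 8 (adjusted p from 0.315 to 0.599), as well as with DESeq2 (0.398), library totals alone (0.362) and the GC and length correction (0.370). Its partner Rplp2 had a log2 fold change of -0.0094 (edgeR adjusted p = 0.910), and was called higher with the GC and length correction (0.09, adjusted p = 0.0890). Of 18 Diamond-Blackfan anaemia genes, 6 were called lower and 2 higher, with a median of -0.04, a share called lower near that of all genes (31.1%). Counts lower and higher were 3 and 2 without DMSO replicate 4 (median 0.02), 4 and 2 without purmorphamine replicate 7 (median 0.02) or 8, and 3 and 5 with the GC and length correction (median 0.03). Among ribosomal proteins that the name pattern leaves out, Rpl36al was called lower (log2 fold change -0.22, edgeR adjusted p = 0.063), and Fau and Rack1 (listed as Gnb2l1) were not called.

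The paralogs gave the clearest contrast within a family. Rps27l, a p53-responsive paralog of Rps27 (ENSMUSG00000036781, chr9:66946086-66949516), had 1147, 1139 and 1074 reads with DMSO against 1021, 924, 1008 and 1032 with purmorphamine, and the groups were separate (log2 fold change -0.22, standard error 0.0536, edgeR adjusted p = 0.00327). Relative to Rps27, its reads were 23.3%, 22.7% and 19.9% with vehicle and 16.7%, 15.7%, 17.3% and 18.7% with purmorphamine. The ratio was lower in every purmorphamine library (log2 difference -0.36, two-sided exact permutation p = 0.0286, which is the lowest value possible with 35 assignments of the libraries, and 0.0571 after Benjamini-Hochberg adjustment over 4 pairs). None of the coding windows of Rps27l is shared with another gene, whereas those of Rps27 nearly all are.

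Rpl7l1, a paralog of Rpl7 (ENSMUSG00000063888, chr17:46773907-46782672), had 1406, 1457 and 1485 reads with DMSO against 1287, 1285, 1176 and 1312 with purmorphamine, again with separate groups (log2 fold change -0.24, standard error 0.0495, edgeR adjusted p = 0.000657). Rpl7 itself was level, at 17746 ± 605 and 18115 ± 384 reads (log2 fold change -0.02, edgeR adjusted p = 0.784). As a share of Rpl7, Rpl7l1 was 8.17% ± 0.281 (SD, n = 3) for DMSO against 6.98% ± 0.320 (SD, n = 4) for purmorphamine, and the ranges did not overlap (log2 difference -0.23, two-sided exact permutation p = 0.0286, adjusted 0.0571). For Rpl22l1 and Rpl22 the ratio overlapped between groups (47.8% ± 2.00 and 46.8% ± 4.09, log2 difference -0.03, exact permutation p = 0.800), and neither gene was called, though Rpl22 was called higher with the GC and length correction (edgeR adjusted p = 0.124). For Rpl36al and Rpl36a it also overlapped (9.68% ± 0.812 and 9.16% ± 1.46, exact permutation p = 0.571), and both genes were called lower. The call of Rpl36a was lost without DMSO replicate 4 (edgeR adjusted p = 0.202) and that of both with the GC and length correction (0.414 for Rpl36a and 0.319 for Rpl36al). No gene was listed under the symbols Rpl39l, Rpl10l or Rps4l, so these paralogs could not be examined.

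Levels differed far more between members than between treatments. Per kilobase of coding sequence, mean reads over the 7 libraries ran from 628 to 44249, a 70.5-fold range, with a median of 8953. Rpl41, the shortest ribosomal protein, had the most reads per coding kilobase (44249), followed by Rpl39 (37648) and Rpl23 (33859), and Rpl29 (628), Rpl36 (748) and Rpl26 (988) had the fewest. Reads were counted per gene but divided by coding length alone, so a short coding sequence raises this value. The coding sequence of Rpl41 is 78 bases, less than 1 read, and that of Rpl39 is 156. Before division, Rpl41 had a mean of 3451 reads, against 25647 for Rpl4. Rpl41 had 3328, 3446 and 3959 reads with DMSO against 3915, 3622, 2742 and 3148 with purmorphamine, and these groups overlapped (log2 fold change -0.14, edgeR adjusted p = 0.221). It was called lower with limma-voom (adjusted p = 0.199) and without DMSO replicate 2 (0.161), purmorphamine replicate 5 (0.0521) or purmorphamine replicate 6 (0.124), but higher with the GC and length correction (log2 fold change 0.15, adjusted p = 0.0787), so its direction depended on the fit. Rpl23 was not called (log2 fold change 0.05, edgeR adjusted p = 0.407), but was called higher with library totals alone (0.0901), with the GC and length correction (0.00965) and without DMSO replicate 4 (0.153). Rpl26 (log2 fold change 0.02, edgeR adjusted p = 0.845) and Rpl36 (-0.0049, adjusted p = 0.983) were not called.

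Reads on these genes can be shared with near-identical copies elsewhere in the genome. Of 79 members with a coding sequence to examine, 72 shared at least 1 window of 100 bases with another annotated gene, and for 49 more than 50% of the windows were shared. Over these 79 genes, which share the libraries, Spearman's rho between the level per coding kilobase and the shared fraction was -0.0044. Of 12 members with no more than 10% of windows shared, a limit chosen after the values were seen, 3 were called lower and 0 higher by edgeR (also 0 higher by DESeq2, limma-voom and at an unadjusted p under 0.05), with a median log2 fold change of -0.06. For the 49 above 50%, 21 were called lower and 2 higher, with a median of -0.07. Of all genes, 31.1% were called lower and 31.4% higher. The difference between these sets of members was not tested. The row for Rpl24 carries the identifier of its neighbour Zbtb11 and a span that covers both, so it may hold reads of both genes and has no length here.

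The members moved together between libraries of the same treatment. DMSO replicate 4 was the highest vehicle library for 75 of the 80 members, against 38.9% of all genes examined, and purmorphamine replicate 5 was the highest of its group for 47 (17.4% of all genes). Purmorphamine replicate 7 was the lowest of its group for 45 (30.4%). The median log2 deviation of the members from their own group's mean was -0.04, -0.04 and 0.08 in DMSO replicates 2 to 4 and 0.09, 0.05, -0.08 and -0.05 in purmorphamine replicates 5 to 8, where those of all genes lay between -0.0036 and 0.0053. The largest of these shifts within a treatment, 0.09, was greater in size than the median difference between treatments, -0.05.

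**Figure D3:**
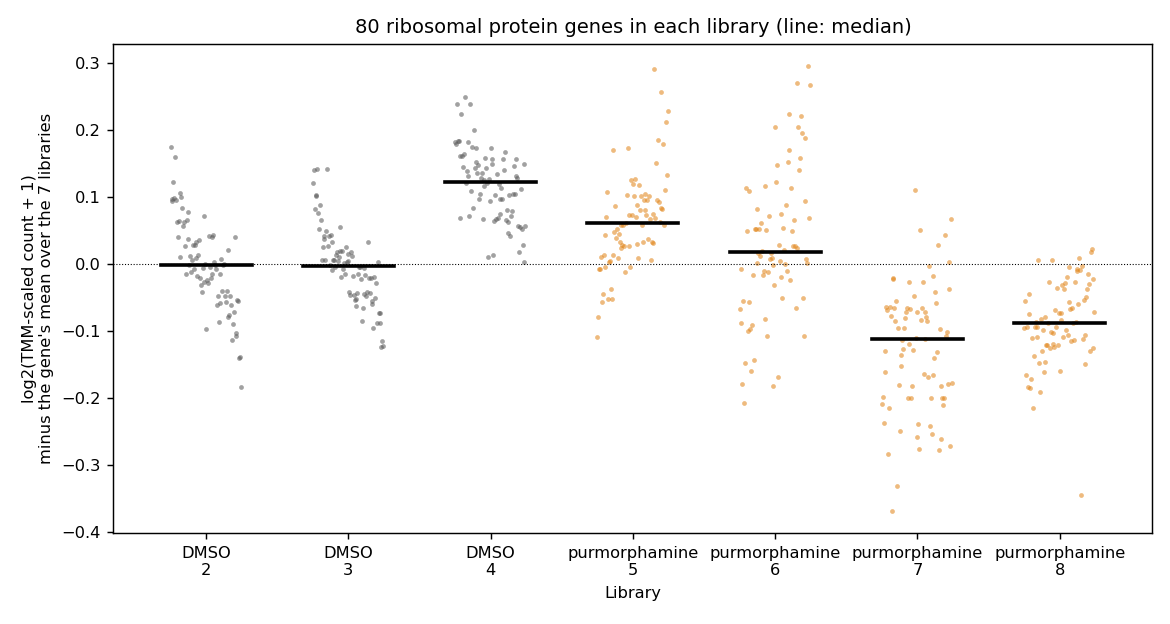
Log2 of the TMM-scaled reads plus 1 for each of the 80 ribosomal protein genes in each library, minus the mean of the gene over the 7 libraries; each point is a gene, ordered from left to right by fold change, and the line is the median. The medians run from -0.11 in purmorphamine replicate 7 to 0.12 in DMSO replicate 4, and those of each treatment lie on both sides of 0. The medians of DMSO replicates 2 and 3 are just below 0 (-0.0011 and -0.0022).

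The deviations moved with GC content. Over 79 members, Spearman's rho between coding GC content (39.6% to 61.3%) and the deviation from the group mean was -0.42, -0.23 and 0.46 in DMSO replicates 2 to 4 and 0.53, 0.72, -0.77 and -0.38 in purmorphamine replicates 5 to 8. Over 10548 genes the same values were -0.26, 0.04, 0.19, 0.23, 0.57, -0.53 and -0.29. The direction was thus the same for the members as for all genes in every library but DMSO replicate 3. These are correlations across genes that share the libraries, given as a description. The log2 fold change between treatments had a rho of 0.13 with GC content over the members. Members are also short, with a median coding length of 456 bases against 1407 for all genes tested, while their median GC content, 52.3%, was close to the 52.5% of all genes. The part of GC content or length in the decreases was not tested beyond the correction given above.

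**Figure D4:**
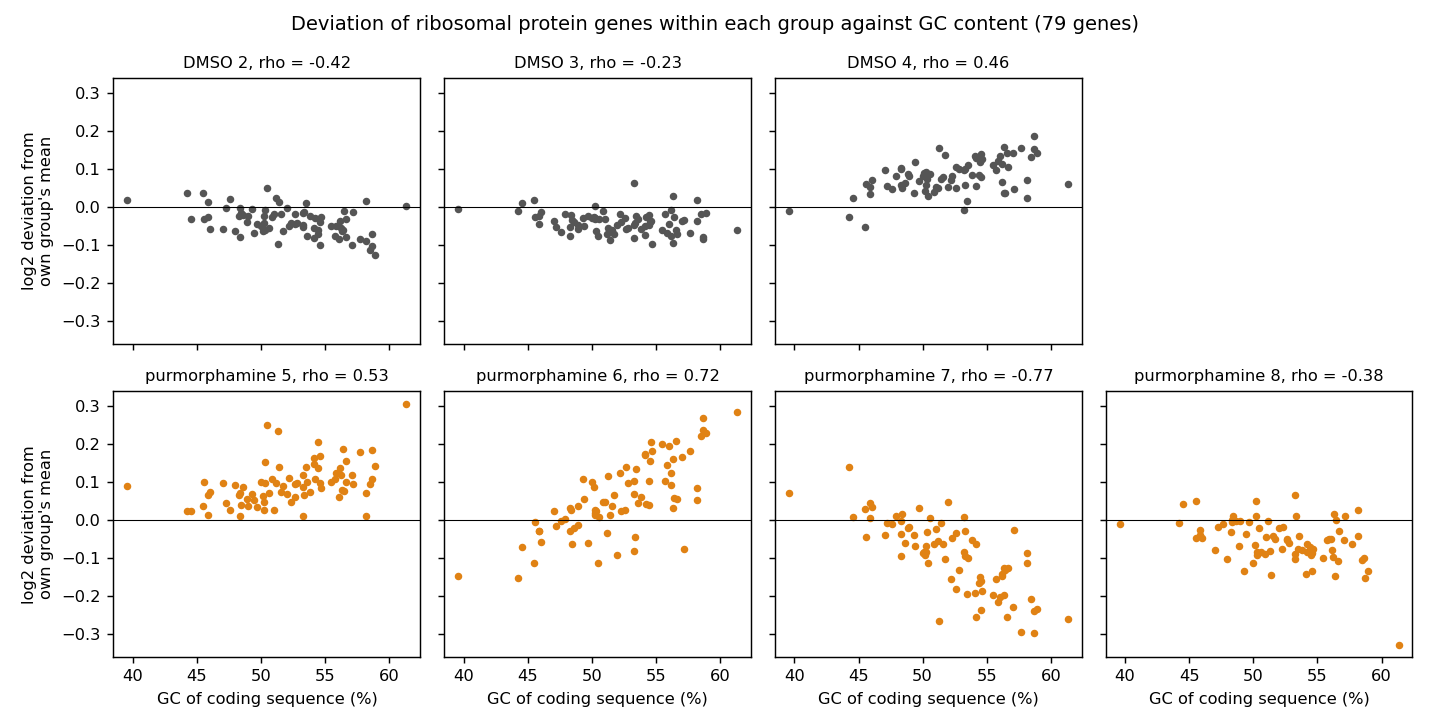
Log2 deviation of 79 ribosomal protein genes from the mean of their own treatment group in each library against the GC content of the coding sequence in percent, with Spearman's rho above each panel. Genes of high GC content lie above their group's mean in DMSO replicate 4 and purmorphamine replicates 5 and 6, and below it in purmorphamine replicate 7.

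Larger median decreases stood in lists for ribosome assembly, initiation factors and mitochondrial ribosomal proteins, but not for elongation factors. These lists were chosen by name, with earlier results of these data known. Of 40 genes for ribosome assembly and RNA polymerase I, 33 were called lower and 2 higher, against 31.1% and 31.4% of all genes. The median log2 fold change was -0.31, with an extreme of -0.84 for Rrs1, an assembly factor of the large subunit (433 ± 7.51 reads with vehicle, 249 ± 29.7 with purmorphamine, edgeR adjusted p = 3.07e-07). Rrp1b had the largest increase called in that list (0.12, edgeR adjusted p = 0.164), a call lost with DESeq2 (0.285) and without DMSO replicate 2 (0.333), DMSO replicate 3 (0.305) or purmorphamine replicate 7 (0.281). With library totals alone 32 of the 40 were called lower, and with the GC and length correction 33, so these counts did not move with the settings that moved those of the ribosomal proteins. Without DMSO replicate 4 the count was 32. A test of the difference between the lists was not made.

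Of 75 mitochondrial ribosomal proteins, which serve the separate ribosome of mitochondria, 30 were called lower and 4 higher, with a median of -0.10, against the same 31.1% and 31.4%. With library totals alone 26 were called lower and 10 higher, with the GC and length correction 27 and 13, and without DMSO replicate 3 the count higher was 2. Mrps12 had 147 ± 2.52 reads with vehicle and 74.0 ± 6.68 with purmorphamine (log2 fold change -1.03, edgeR adjusted p = 9.72e-07), and Mrps33 had the largest increase called (0.24, edgeR adjusted p = 0.0971), which was lost without DMSO replicate 2 (0.250), DMSO replicate 3 (0.247) or purmorphamine replicate 5 (0.211). Of 28 initiation factors 18 were called lower and 0 higher, with a median of -0.13, and Eif4g2, an initiation factor that acts without the cap-binding protein, fell from 28450 ± 216 to 19209 ± 969 reads (log2 fold change -0.61, edgeR adjusted p = 1.80e-08). Of 9 genes listed with the elongation factors 4 were called lower and 0 higher, with a median of -0.05. Eef1e1, which is named with the elongation factors but is a scaffold protein of the aminoacyl-tRNA synthetase complex, had the largest decrease (log2 fold change -0.72, edgeR adjusted p = 1.92e-06). Without it and Tpt1, which is not an elongation factor either, 3 of 7 were called lower. For increases of initiation or elongation factors, DESeq2 and limma-voom also called 0 genes, and 0 had an unadjusted p under 0.05 in edgeR. With library totals alone, 3 initiation factors and 1 elongation factor were called higher, and with the GC and length correction 0 and 2.

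**Figure D5:**
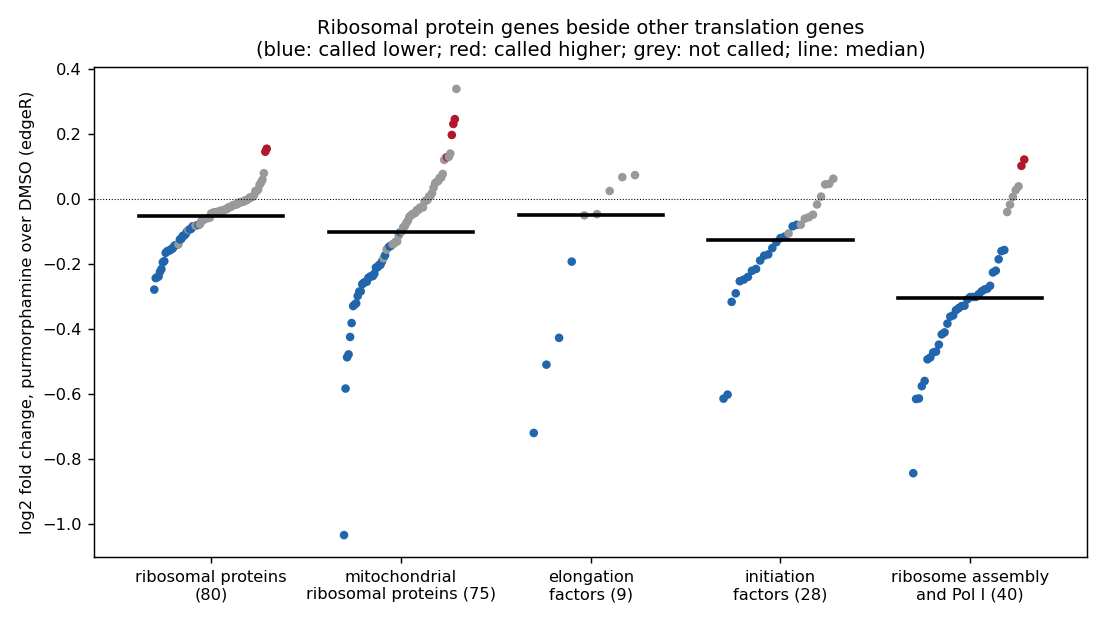
Log2 fold change of purmorphamine over vehicle (edgeR) for each gene tested in 5 sets, ranked within a set, with the number of genes in parentheses, genes called lower in blue, called higher in red and not called in grey. The medians (lines) are -0.05 for ribosomal proteins, -0.10 for mitochondrial ribosomal proteins, -0.05 for elongation factors, -0.13 for initiation factors and -0.31 for ribosome assembly and RNA polymerase I.

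Of 12 regulators of messages with a terminal oligopyrimidine tract, 2 were called higher and 3 lower. Any call was thus made for 41.7% of them, against 62.5% of all genes. Tsc1 and Tsc2, which together form the inhibitor of mTOR complex 1, were those called higher. Tsc1 had 855 ± 43.4 reads with vehicle and 1105 ± 39.6 with purmorphamine (log2 fold change 0.32, edgeR adjusted p = 0.000101), and the change of Tsc2 was 0.23 (edgeR adjusted p = 0.00175). Among those called lower, Larp4, which binds poly(A), had the largest decrease (-0.26, edgeR adjusted p = 0.000231). Rptor, the subunit of mTOR complex 1 that selects its substrates, had a log2 fold change of -0.25 (edgeR adjusted p = 0.00807). Cnbp was also called lower (-0.087, edgeR adjusted p = 0.134), though its groups overlapped in the deposited counts. Larp1, which binds the tract itself, was not called (2041 ± 38.3 and 2034 ± 102 reads, log2 fold change -0.05, edgeR adjusted p = 0.404). Mtor, Rheb, Rps6kb1, Rps6kb2, Eif4ebp1 and Eif4ebp2 were not called either (edgeR adjusted p from 0.288 to 0.942).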

How the data were processed

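RNA-seq libraries of C3H10T1/2 cells exposed to purmorphamine (n = 4) or DMSO (n = 3) were compared. The authors resampled reads to equal depth and deposited counts, whole numbers of sense-strand reads per gene. The submitters' processing notes name STAR 2.5.3a and mm9. The annotation and the treatment of reads that map to several places are not given in the sources used here. No per-sample column was left unused.

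Counts were tested with edgeR 4.0.16 (limma 3.58.1, R 4.3.3) on the whole table, with TMM factors, the default filter (minimum count 10, minimum total 15, leaving 12388 of 18468 genes) and a quasi-likelihood test, with calls at an adjusted p (Benjamini-Hochberg) under 0.2. Limma-voom, as used in the study, and DESeq2 1.42.0 were alternatives, with other scalings, filters and thresholds, a GC and length correction, and each library left out. Exact permutation tests enumerated the 35 assignments of libraries. The calculations were tested on simulated data.

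Positions, coding lengths and sequences came from GENCODE M21 (GRCm38), which matched 17632 genes (95.5%) by identifier, and start sites from RefSeq (GRCm38.p6). Coordinates in the deposited table (mm9) were left aside. The members and lists were chosen with earlier results of these data known. Genes named were the 6 largest increases and decreases called (only 2 increases were), the 3 with the most and the fewest reads per coding kilobase, paralog pairs, those nearest the minimum mean of 50, the extremes of each functional group, and the largest changes called in other lists. Rps3, Rplp2, Rps14 and Rpl11 are such extremes. Larp1, Tsc2, Rptor and Cnbp, the uncalled genes listed with them, and those members named only for holding under every fit, were named after their values were seen. Library totals were nearly equal.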

Additional observations from a re-analysis of the deposited data

Results flagged for a closer look

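In 2 of 29 values examined, 1 purmorphamine library stood apart from the other 3 by a gap, relative to the range of the group, above Dixon's 95% critical value, where chance gives about 1.45. For Rps27l the gap was 0.876 of the range, with 1007, 907, 1002 and 1015 TMM-scaled reads in purmorphamine replicates 5 to 8, so that replicate 6 was low. For Rpl7 it was 0.847, with 18425, 17663, 17748 and 17626 scaled reads, so that replicate 5 was high. The cause was not tested.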

How the results depend on the processing

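No paired analysis was possible because the vehicle and purmorphamine libraries share no replicate number. Main counts of ribosomal protein genes were 28 lower and 2 higher. They were 16 and 4 with library totals alone, 13 and 15 with the GC and length correction, 16 and 1 at an adjusted p under 0.05, and 1 and 0 at a change of at least 1.2-fold, and limma-voom called 1 higher. With each library left out, 14 to 32 were called lower and 1 to 4 higher, with 14 lower without DMSO replicate 4 and 18 without purmorphamine replicate 7 or 8. The increases were 1 without DMSO replicate 2 or 3 or purmorphamine replicate 5 or 6, and 4 without DMSO replicate 4 or purmorphamine replicate 7. Of all genes, 26.9% were called lower and 27.9% higher without DMSO replicate 4. At an adjusted p under 0.05, 2926 of all genes were called lower and 2879 higher. At 1.2-fold, 2187 of all genes were called lower and 2414 higher, with 12 mitochondrial ribosomal proteins and 4 initiation factors lower. Beyond the thresholds themselves, the cause of these shifts was not tested. Of 384 values (24 named members under 16 alternative fits), 353 kept their side of the threshold, 14 lost a call and 17 gained one, and 0 members called at first changed direction. Of those not called at first, 4 gained a call of the opposite sign with the GC and length correction, 2 of which (Rpl39 and Rpl41) were called lower in other fits. The least abundant member, Rpl36, had 188 reads in its lowest library. Its 95% interval ran from -0.29 to 0.28, where the median distance from estimate to bound was 0.12 over the members.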
